A study of Canis lupus familiaris with 77 samples.

Results

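The miRNAs of the intestinal tract of the beagle dog were compared, in both directions, with those of the other tissues of a small RNA sequencing atlas. The members were taken from the tissue labels alone. Duodenum (n = 5), jejunum (n = 5), ileum (n = 5) and colon (n = 4) made up the intestinal class of 19 libraries, out of 76 libraries with values, and the other class held 57 libraries from the 12 remaining tissues, which were liver, pancreas, kidney, lung, heart, skeletal muscle, testis, thymus, bone marrow, plasma, brain and sciatic nerve. Of 77 labelled samples, 1 colon sample had no values and was not analysed here. All tissues came from untreated male Marshall Beagles in their first year of life, perfused with phosphate-buffered saline before the organs were taken, a step meant to lower the blood cells left in the tissue. No genotype or treatment differed between the groups. Preparation did: per the study's methods, bone marrow RNA was isolated with TriReagent LS and plasma RNA from a fluid, the other tissues with a magnetic bead kit, RNA integrity was low in plasma and in bone marrow, and sciatic nerve RNA of several dogs was pooled. The study's results instead describe 2 individual sciatic nerve samples and a pool, and the pooled sample was not used here. Whether the 2 sciatic nerve libraries are separate dogs is therefore not settled. Preparation and tissue cannot be told apart for bone marrow, plasma and sciatic nerve. The study also reports low RNA integrity in some kidney samples and the most variable share of mapped reads in thymus. It excepts muscle, duodenum, testis and thymus from its good agreement between samples of a tissue. RNA of bulk tissue was measured, so fewer cells of a type and less RNA per cell cannot be told apart in any value given here.

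miRNAs are short RNAs that pair with mRNAs and reduce their translation or stability, and many are made in only a few cell types. The gut wall is a layered organ: an epithelium renewed from dividing crypt cells, a lamina propria rich in lymphocytes and myeloid cells, and coats of smooth muscle with their nerves. Families known from these layers include miR-192, miR-194, miR-215 and miR-802 and the miR-200 family of epithelia, miR-143 and miR-145 of smooth muscle and fibroblasts, and miR-142, miR-146a, miR-150 and miR-155 of leukocytes. miRNAs of the HOX gene clusters, miR-10 and miR-196, mark position along the body axis.

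Levels were expressed as RPM, read counts scaled to a common total of reads assigned to miRNAs in each library. Intestinal libraries held 442945 to 6117500 such reads (median 1386570) and the other libraries 157871 to 7896424. A count of 3 reads, taken as the detection floor, was worth 0.490 to 6.77 RPM in the intestinal libraries and 0.380 to 19 RPM in the others, and floors and intervals cover counting error only. Of 650 miRNAs with any read, 562 were detected in at least 1 intestinal library, 256 in every one and 6 in intestinal libraries only. Names of dog entries are given plainly, and entries annotated from human or rat alone keep the prefix hsa or rno. Near-identical miRNAs (such as miR-17 and miR-106a, miR-18a and miR-18b, miR-133a and miR-133b, miR-200b and miR-200c) could exchange reads, and their separate values are uncertain. Exchange of reads was also not checked between miR-192 and miR-215, miR-10a and miR-10b, or miR-196a and miR-196b.

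Of the 5 duodenum libraries, 3 stood apart from the rest of the intestine (replicates 3, 4 and 5). Their summed miR-192, miR-194, miR-215 and miR-802 level was 5977, 23479 and 88690 RPM against 70651 to 527907 RPM in the other 16 intestinal libraries, and the leukocyte list sum was 1337 to 5632 RPM against 8256 to 27613 RPM. The erythroid sum (miR-144, miR-451 and miR-486) went the other way, from 22919.9 to 74504 RPM against 935 to 10556 RPM, and the smooth muscle sum was 215838 to 621309 RPM against 89276 to 447253 RPM. Other epithelial lists mostly stayed within the range of the other libraries. The miR-200 family sum was 269, 3779 and 3892 RPM against 2450 to 25328 RPM. For other epithelial and endocrine miRNAs the sum was 497, 12029 and 12913 RPM against 4156 to 15574 RPM. The pancreatic acinar sum stayed at 0.778 to 5.26 RPM in these 3 libraries. They carry the duodenum label and were kept, and results that rest on them are given with and without them.

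**Figure D1:**
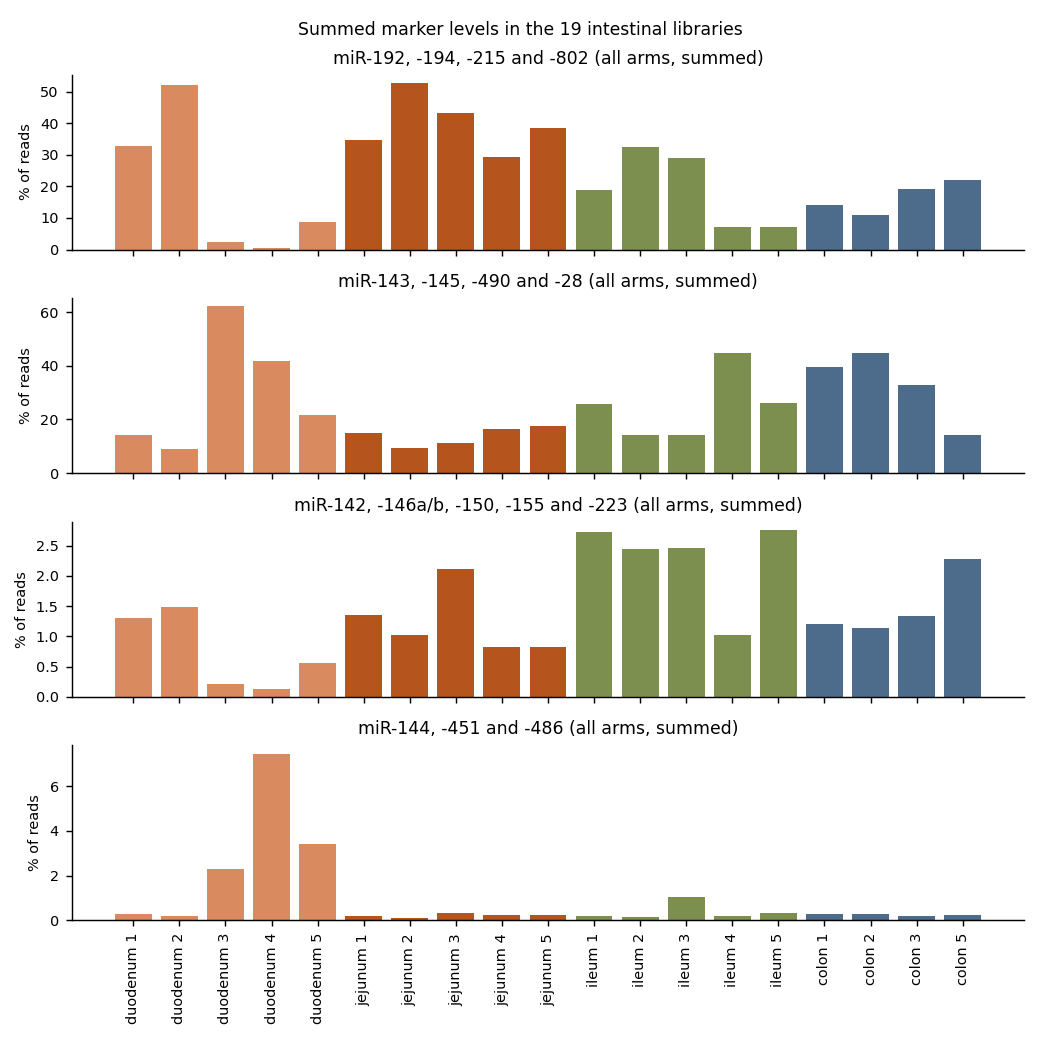
Bars show, for each of the 19 intestinal libraries along the x axis, the summed share of reads (y axis, % of miRNA reads) taken by miR-192, miR-194, miR-215 and miR-802, by the smooth muscle list, by the leukocyte list and by the erythroid list. Duodenum replicates 3, 4 and 5 have the shortest leukocyte bars of the 19 (at most 5632 RPM) and the tallest erythroid bars (at least 22919.9 RPM).

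The first question was which miRNAs were higher or lower in the intestinal tract than in all other tissues together. A quasi-likelihood negative binomial fit (edgeR) of 480 miRNAs over the 76 libraries, with Benjamini-Hochberg adjustment and a threshold of 0.05, called 39 higher (8.12% of those tested) and 217 lower (45.2%). The fitted level of the other class is a mean over its libraries and follows the tissue in which a miRNA is most abundant. In a second fit, each tissue was given its own level and the average log level of the 4 intestinal tissues was set against that of the other 12, so that each tissue counted equally. That fit called 147 higher (30.6%) and 75 lower (15.6%). The median log2 fold change over all 480 miRNAs was -0.91 in the first fit and 0.0046 in the second, and the direction of the balance therefore depended on the weighting. All 39 miRNAs of the first fit were also higher in the second and in an exact rank-sum test across all detected miRNAs. Of the 217 lower miRNAs, 73 were lower and 8 were higher in the second fit. With each tissue taken as a single value (4 against 12, limma), 3 miRNAs were called higher (0.625%), miR-215, miR-194 and miR-147, and 0 lower (0.0%), with 51 below an unadjusted p of 0.05, 8 of these lower. Without the 3 duodenum libraries the fit over libraries called 33 higher, 31 of them among the 39, and 252 lower. Without plasma and bone marrow it called 62 higher and 222 lower, and without sciatic nerve 41 and 206. Several tissues came from the same dogs and the labels do not tie libraries to dogs, so the p-values over libraries measure only the spread between these libraries. The p-values with tissues weighted equally rest on the spread between libraries of the same tissue. They leave out the spread between the tissues of a class, which only the limma test with tissues as single values takes in.

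**Figure D2:**
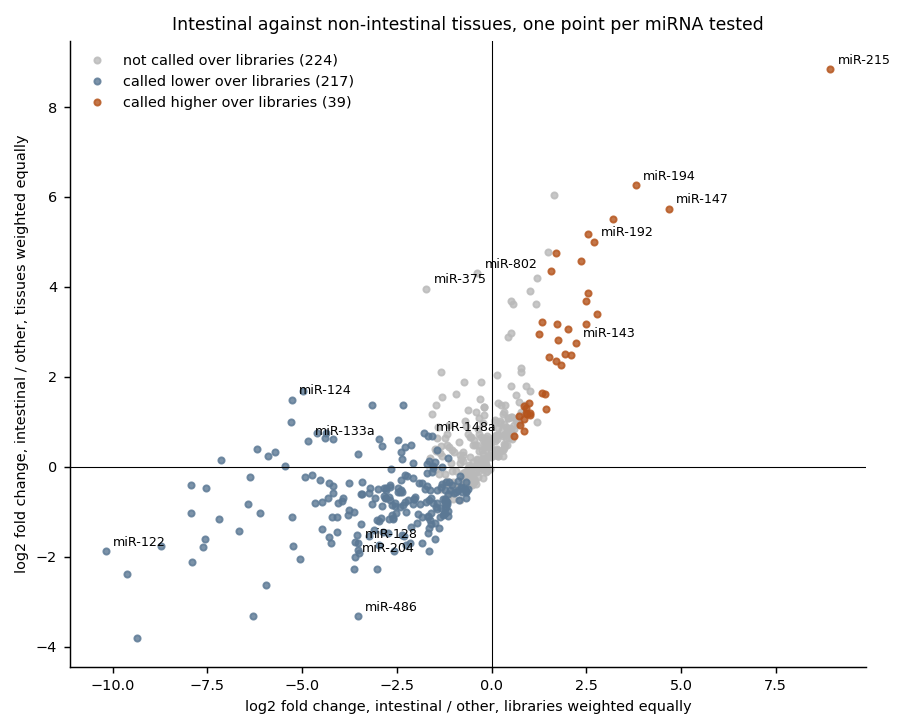
Each point is 1 of the 480 tested miRNAs, with the log2 fold change of intestinal over other tissues when libraries count equally (x axis) and when tissues count equally (y axis), coloured by the call over libraries. The 39 miRNAs called higher all lie in the upper right, whereas the 217 called lower spread over both signs of the y axis, with miR-133a at -4.84 and 0.58, and miR-486 at -3.53 and -3.32.

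The miR-192, miR-194, miR-215 and miR-802 list, miRNAs known as targets of hepatocyte nuclear factors in gut, liver, kidney and pancreas epithelium, had 4 of 5 entries called higher and 0 lower, with a median log2 fold change of 2.69 (all miRNAs tested, -0.91). With tissues weighted equally all 5 were higher, with a median of 5.18 (all tested, 0.0046). Of all 480 tested, 8.12% were higher and 45.2% lower over libraries, and 30.6% and 15.6% with tissues weighted equally. Each list count below is to be read beside these shares. miR-215, which shares its seed with miR-192, gave the largest difference of all. Its lowest, median and highest values were 424, 21317 and 91939 RPM in the 19 intestinal libraries and 0, 33.9 and 474 RPM in the 57 others. All intestinal libraries except duodenum replicate 3 lay above the highest other library, which was a plasma library. The fold change was 8.94 ± 0.51 on the log2 scale (SE, adjusted p = 2.95e-26), and it was 8.84 with tissues weighted equally. With each tissue as a single value, its adjusted p by limma was 8.63e-06.

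miR-192 was far more abundant than miR-215 and less restricted. It spanned 5189, 204565 and 398717 RPM (lowest, median, highest) in the intestine and 504, 2891 and 221981 RPM elsewhere, where liver had the highest tissue median at 176166 RPM. The 2 ranges overlapped, with 9 of 19 intestinal libraries above the highest liver library. The log2 fold change was 2.69 ± 0.56 (adjusted p = 1.59e-04), and 5.0 with tissues weighted equally. Its partner strand hsa-miR-192-3p differed by 2.53 ± 0.57 (adjusted p = 2.84e-04). miR-194, which is made from the same primary transcripts as miR-192 and miR-215, ran from 307 to 43838 RPM with a median of 11766 RPM in the intestine. The other libraries ran from 16.3 to 9930.1 RPM with a median of 116 RPM, again with liver highest. Here 11 of 19 intestinal libraries were above every other library, and the log2 fold change was 3.80 ± 0.60 (adjusted p = 1.09e-06). The ratio of miR-192 to miR-215 was 4.19 to 52.7 in duodenum, 4.02 to 6.44 in jejunum, 5.27 to 7.25 in ileum and 52.6 to 85.2 in colon, against 1156 to 3743 in liver, 828.6 to 2659 in kidney and 165 to 2229 in pancreas. The small intestinal tissues overlapped one another, duodenum reached the colon range, and liver, kidney and pancreas overlapped, all above the intestinal libraries. Other tissues reached the intestinal range, with 15.1 to 32.2 in thymus, 15.8 to 183 in heart and 18 to 154 in skeletal muscle. Sciatic nerve, testis, plasma and brain also overlapped it, whereas lung and bone marrow lay above it.

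miR-802, known from hepatocytes, pancreas and small intestine, spanned 0, 104 and 648 RPM in the intestine and 0, 0.917 and 3009 RPM elsewhere, with pancreas at a median of 2512 RPM. Its intestinal libraries lay inside the range of the others. The log2 fold change was -0.38 ± 1.09 (adjusted p = 0.768) over libraries, 4.31 (adjusted p = 4.08e-08, edgeR) with tissues weighted equally, and 2.88 with pancreas left out. miR-147, known from the response of macrophages to microbial ligands, was low in abundance and lower still outside the intestine. Its lowest, median and highest values were 0, 32.6 and 197 RPM in the intestine and 0, 0 and 15.1 RPM elsewhere, with lung highest at a median of 10.5 RPM. Of 19 intestinal libraries, 16 exceeded every other library, and the 3 that did not were duodenum replicates 3, 4 and 5. The log2 fold change was 4.67 ± 0.51 (adjusted p = 1.78e-11).

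**Figure D3:**
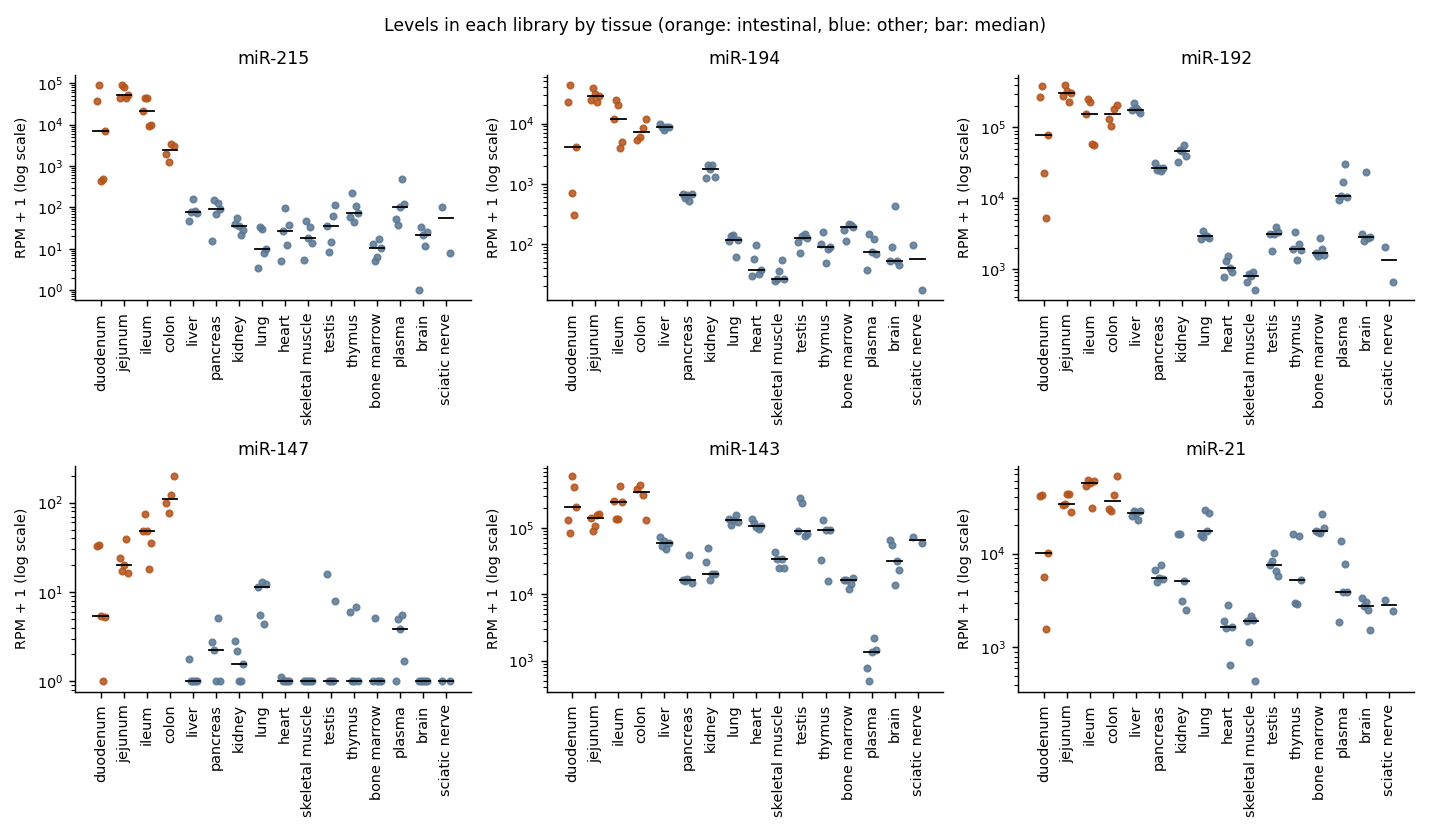
Levels of miR-215, miR-194, miR-192, miR-147, miR-143 and miR-21 are drawn as RPM + 1 on a log scale (y axis) for every library of the 16 tissues (x axis), with intestinal tissues in orange, other tissues in blue and the tissue median as a bar. miR-215 stands at 21317 RPM (median) in the intestine and at most 474 RPM elsewhere, whereas miR-192 in liver (median 176166 RPM) reaches the intestinal range.

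The miR-200 family, which keeps epithelial cells from mesenchymal change by targeting ZEB1 and ZEB2, had 3 of 9 entries called higher and 0 lower over libraries (median 1.49), and 9 of 9 higher with tissues weighted equally (median 4.19). Pancreas had the highest other median for every entry. miR-200c spanned 20.2, 769.8 and 2019 RPM in the intestine and 0, 10.8 and 1885 RPM elsewhere, with a pancreas median of 1834 RPM. The log2 fold change of miR-200c was 1.70 ± 0.71 (adjusted p = 0.0383), that of miR-200a was 1.56 ± 0.60 (adjusted p = 0.0237), and that of hsa-miR-200c-5p was 2.49 ± 0.53 (adjusted p = 1.86e-04). Without the 3 duodenum libraries, miR-200a and miR-200c passed the threshold no longer (adjusted p = 0.0583 and 0.0798, edgeR), which left 1 of 9 entries higher. miR-141, named in the study for an intestinal tissue, spanned 173, 3015 and 21926 RPM in the intestine and 1.77, 129 and 18258 RPM elsewhere. Its log2 fold change was 1.02 ± 0.74 (adjusted p = 0.232) over libraries and 3.90 (adjusted p = 1.35e-12) with tissues weighted equally.

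Among other epithelial and endocrine miRNAs, 5 of 14 tested were called higher and 2 lower (median 0.12), and 11 were higher and 0 lower with tissues weighted equally (median 1.96). miR-203, known from the differentiation of stratified epithelium, spanned 17.1, 684 and 1397 RPM in the intestine and 0, 39.1 and 637 RPM elsewhere, and 10 of 19 intestinal libraries exceeded all others. It differed by 2.54 ± 0.48 (adjusted p = 5.68e-05), and its median in each of the 4 intestinal tissues was above that of every other tissue. miR-31, an epithelial miRNA, differed by 1.24 ± 0.52 (adjusted p = 0.039, and 0.0953 without the 3 duodenum libraries). miR-375, known from endocrine cells, had a median of 4241 RPM in the intestine against 157 RPM elsewhere, with pancreas at 148274 RPM. Its log2 fold change was -1.72 ± 1.08 (adjusted p = 0.164) over libraries and 3.96 (adjusted p = 1.64e-17) with tissues weighted equally. The other higher entries were miR-147, hsa-miR-31-3p and hsa-miR-7-1-3p. hsa-miR-31-3p also lost its call without those libraries (adjusted p = 0.076, edgeR), and 3 of 14 entries were then higher. The lower entries were miR-205, a miRNA of squamous and basal epithelium with its highest median in testis (415 RPM), and rno-miR-7a-2-3p.

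In the smooth muscle list, 7 of 8 entries were higher and 0 lower over libraries (median 1.73), and all 8 with tissues weighted equally (median 2.79). When the 3 duodenum libraries were left out, hsa-miR-490-5p lost its call (adjusted p = 0.0572, edgeR) and 6 of 8 were higher. miR-143, the most abundant miRNA of the intestine, spanned 84748, 164349 and 604122 RPM there and 485, 43172 and 283034 RPM elsewhere, where lung had the highest tissue median. The ranges overlapped, with 6 of 19 intestinal libraries above every other library, and the log2 fold change was 2.23 ± 0.35 (adjusted p = 1.01e-06). miR-145, from the same primary transcript, ran from 786 to 11334 RPM with a median of 3659 RPM, against 0 to 4839 RPM with a median of 618 RPM elsewhere, and differed by 2.48 ± 0.38 (adjusted p = 7.17e-07). hsa-miR-145-3p differed by 2.11 ± 0.31 (adjusted p = 1.73e-07), with values of 149, 332 and 923 RPM (lowest, median, highest) in the intestine and 2.27, 81 and 507 RPM elsewhere. miR-28 and hsa-miR-28-5p, which lie within the smooth muscle gene LPP, were higher by 0.90 and 0.95. miR-143, miR-145, hsa-miR-145-3p and hsa-miR-28-5p were, with miR-215 and miR-203, the 6 of the 39 miRNAs whose median in each of the 4 intestinal tissues exceeded that of every other tissue. Among fibroblast miRNAs (miR-199 and miR-214), 1 of 5 was called higher (hsa-miR-199a-5p, 0.90) and 0 lower, and 5 of 5 higher with tissues weighted equally (median 0.92).

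miR-143 and miR-192 together made up a large share of the intestinal reads. miR-143 took 24.1% ± 14.8 (SD, n = 19) and miR-192 19.2% ± 11.9. Their sum was 28.7 to 62.6% per library in the intestine with a median of 41.8%, against 1.01 to 28.5% elsewhere with a median of 6.26%. The lowest intestinal library was thus just above the highest other one, a testis library, and liver followed with a median of 24.9%. miR-143 and miR-192 rank 1 and 2 in these same intestinal libraries, so the separation follows in part from the choice. Each of them alone overlapped the other class. miR-10b, which takes the largest mean share in the other tissues, ranked 3 in the intestine at 6.26% ± 4.83 against 16.8% ± 17.7 (SD, n = 57). miR-215 ranked 6 in the intestine with 3.09% ± 3.12 of reads and 190 elsewhere.

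Of the lymphocyte and myeloid miRNAs, 3 of 8 tested entries were higher and 2 lower over libraries (median 0.64), and 6 were higher and 0 lower with tissues weighted equally (median 2.19). hsa-miR-142-3p, made in all blood cell lineages, spanned 7.0, 854 and 2251 RPM in the intestine and 0, 17 and 2401 RPM elsewhere, with bone marrow highest by median and thymus by single library. It differed by 2.35 ± 0.60 (adjusted p = 0.00105). miR-146a, a feedback regulator of NF-kB signalling, differed by 2.02 ± 0.42 (adjusted p = 1.35e-04), with 553, 3669 and 8629.7 RPM (lowest, median, highest) against 16.4, 327 and 7961 RPM. miR-155, induced in activated lymphocytes, had 145, 776 and 4873 RPM against 21.1, 102 and 3487 RPM and differed by 1.84 ± 0.40 (adjusted p = 2.10e-04). All 3 had intestinal ranges that overlapped the other class. The 2 lower entries were the arms of miR-223, a granulocyte miRNA, at -4.73 and -4.32, and both had their highest median in bone marrow. miR-150, of mature lymphocytes, differed by 0.77 ± 0.51 (adjusted p = 0.187) over libraries and 2.10 with tissues weighted equally.

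miR-21, abundant in many proliferating and inflamed tissues, spanned 1583, 41624 and 67178 RPM in the intestine and 434, 5437 and 29151 RPM elsewhere. In 14 of 19 intestinal libraries it was above every other library, although the 3 duodenum libraries that stood apart ranged from 1583 to 10153 RPM. The log2 fold change was 1.94 ± 0.31 (adjusted p = 1.28e-06). Of 19 tested entries of the miR-17 to miR-92 cluster and its paralogs, miRNAs of dividing cells, 3 were higher and 1 lower (median -0.22), and 12 higher and 0 lower with tissues weighted equally (median 0.83). miR-18a spanned 6.49, 188 and 633 RPM in the intestine and 0, 17.9 and 169 RPM elsewhere, with bone marrow at a median of 101 RPM. It differed by 2.79 ± 0.39 (adjusted p = 4.55e-08), whereas miR-19a, miR-20a and miR-92a from the same cluster had log2 fold changes of -0.20, 0.64 and -0.57, none past the threshold. miR-20a was called higher without the 3 duodenum libraries (0.68, adjusted p = 0.0428, edgeR). The miR-17 row, which holds the 3p strand, had 0.11 and was not called. The other higher entries were miR-18b (1.70) and the row shared by miR-106a and hsa-miR-17-5p, the 5p strand of miR-17 (0.72), and the lower one was miR-93 (-1.30). The let-7 family, which accumulates in differentiated cells, had 0 of 14 higher and 2 lower (median -0.18; 6 higher and 2 lower with tissues weighted equally, median 0.21). The lower entries were let-7c at -1.39 and hsa-let-7b-3p at -1.15.

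**Figure D4:**
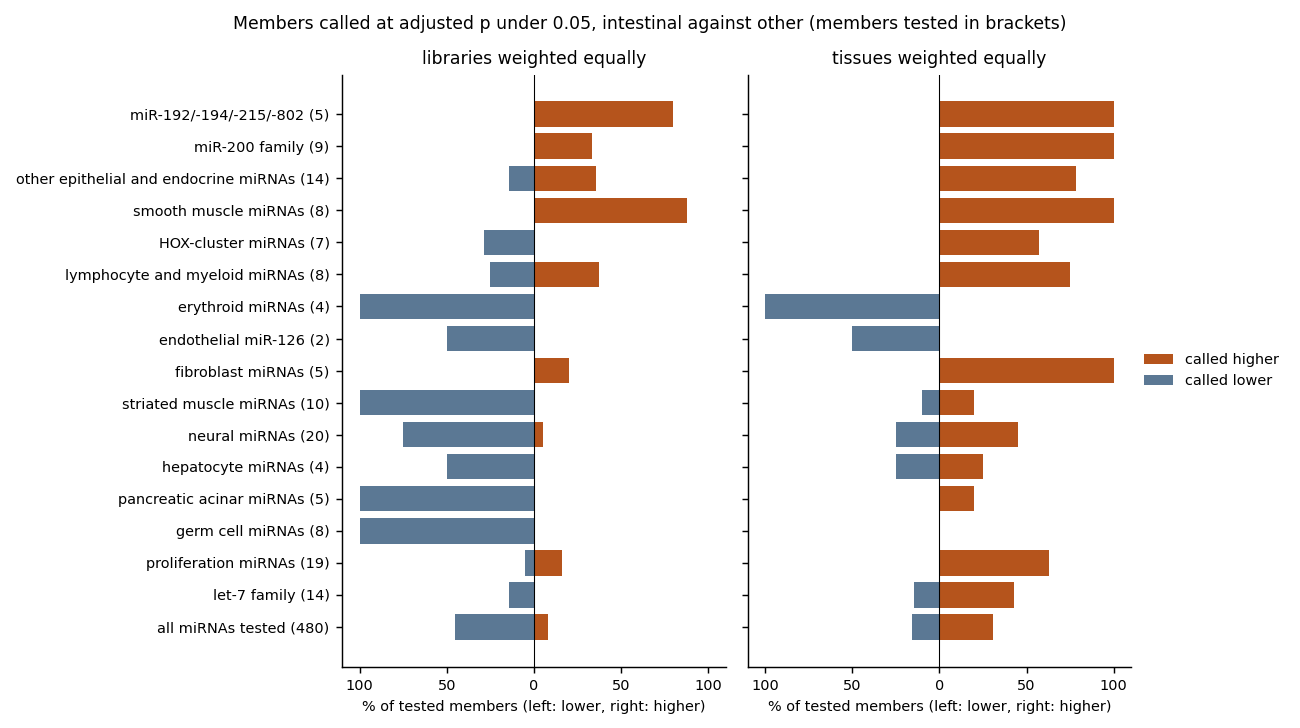
Bars show the percentage of tested members (x axis) of each miRNA list (y axis, number tested in brackets) that was called higher, to the right, or lower, to the left, in the intestinal tract, with libraries weighted equally in the first panel and tissues in the second. The smooth muscle list goes from 7 of 8 to 8 of 8 higher and the erythroid list is 4 of 4 lower in both panels, whereas the striated muscle list goes from 10 of 10 lower to 2 higher and 1 lower.

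The 4 erythroid entries (miR-144, hsa-miR-144-5p, miR-451 and miR-486), known from red blood cells, were all lower under both weightings, with medians of -3.57 and -1.80. Their sum was 100037 to 274996 RPM in heart, 48512 to 171943 RPM in skeletal muscle and 84257 to 146066 RPM in bone marrow. In plasma it was 545235 to 816358 RPM. Which cells these reads came from was not tested. miR-486 spanned 475, 1708 and 72446 RPM in the intestine and 1168, 40369.8 and 760806 RPM elsewhere. Its log2 fold change was -3.53 ± 0.82 (adjusted p = 4.27e-04), close to that with tissues weighted equally (-3.32), and the exact rank-sum test gave an adjusted p of 8.19e-07. The highest intestinal values were those of duodenum replicates 3 to 5 (20846 to 72446 RPM), and the other 16 libraries lay between 475 and 8321 RPM. miR-451, which DICER does not process, had 251, 867 and 5842 RPM against 155, 2379 and 116508 RPM and differed by -3.62 ± 0.80 (adjusted p = 2.57e-04). Plasma had the highest median for all 4 entries, at 579253 RPM for miR-486. The organs had been perfused and plasma had not, and the part of residual blood in this difference was not tested. Of the 2 arms of endothelial miR-126, miR-126 was lower (-1.17 ± 0.31, adjusted p = 0.00159), with its highest median in lung, and hsa-miR-126-3p had -0.71 ± 0.32 (adjusted p = 0.0579). Both were lower without the 3 duodenum libraries.

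A second set of lower miRNAs was broadly expressed outside the intestine, with a median of at least 100 RPM in 6 or more of the other tissues. There were 35 such miRNAs among the 217, with no share over all tested counted. miR-204, known from kidney and choroid plexus, spanned 30.3, 66.9 and 609 RPM in the intestine and 0, 360.2 and 18388 RPM elsewhere, and it differed by -3.61 ± 0.79 (adjusted p = 2.10e-04) over libraries and -2.02 with tissues weighted equally. miR-128, a neuronal miRNA that is also made in other tissues, spanned 113, 164 and 328 RPM against 140.3, 275 and 49434 RPM. It differed by -3.53 ± 0.68 (adjusted p = 7.18e-05) and -1.70 respectively, and 34 of the 57 other libraries lay below the highest intestinal one. hsa-miR-125b-2-3p had 21.4, 70.5 and 609 RPM against 7.93, 478 and 2062 RPM and a similar difference under both weightings (-1.66 ± 0.41 and -1.88, adjusted p = 7.82e-04 over libraries). miR-423a differed by -2.52 and -1.04, hsa-miR-30c-2-3p by -1.97 and -1.24, and miR-107, which is encoded with miR-103 in the PANK genes, by -2.04 and -0.71. miR-107 lost its call without plasma and bone marrow (-0.50).

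Many of the lower calls were of miRNAs that reached 100 RPM in few tissues. Of the 217, 66 had a median of at least 100 RPM in exactly 1 other tissue, against 84 of all 480 tested. Another 84 of the 217 reached it in none, which are miRNAs of low abundance throughout. Their share over all tested was not counted. The tissue with the highest other median was brain for 100 of the 217 (46.1%), against 186 of all 480 tested (38.8%). It was testis for 38, plasma for 16 and heart for 14 of the 217, with no share over all tested counted for these. All 10 tested striated muscle entries were lower (median -4.73), as were all 5 pancreatic acinar entries (-7.14), all 8 germ cell entries (-5.14), 15 of 20 neural entries (-2.19) and 2 of 4 hepatocyte entries (-4.88). Of all 480 tested, 45.2% were lower, near the share of the hepatocyte entries. With tissues weighted equally the calls were 2 higher and 1 lower for striated muscle, 1 and 0 for acinar, 0 and 0 for germ cell, 9 and 5 for neural and 1 and 1 for hepatocyte entries, with medians of 0.15, 0.14, -0.39, 0.51 and -0.69. Of all 480 tested, 30.6% were higher and 15.6% lower with this weighting. miR-133a, of cardiac and skeletal muscle, had 168, 399 and 1271 RPM in the intestine against 6.26, 131 and 108825 RPM. Its median was thus higher in the intestine than over the other libraries. The libraries of heart and skeletal muscle were far above both, except skeletal muscle replicate 4, whose whole striated muscle list summed to 735 RPM. The log2 fold change of miR-133a was -4.84 ± 1.30 (adjusted p = 0.00155) over libraries and 0.58 with tissues weighted equally. miR-148a, abundant in pancreas (406344 RPM), went from -1.67 ± 0.67 (adjusted p = 0.0309) to 0.68 (adjusted p = 4.26e-06), and was 0.26 without pancreas. Of the 8 miRNAs that were called in opposite directions by the 2 weightings, the others were miR-1, hsa-miR-499a-3p, miR-9, miR-124, miR-212, hsa-miR-212-3p and rno-miR-216a-3p.

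For miRNAs nearly absent from the intestine, the counts set the size of the difference. miR-122, the main liver miRNA, had 0, 1.19 and 5.77 RPM in the intestine and a liver median of 22008 RPM, with a log2 fold change of -10.18 ± 2.08 (adjusted p = 1.33e-04). miR-202, of the gonads, had 4 reads over all 19 intestinal libraries. Its pooled level was 0.104 RPM in the intestine and 41.1 RPM elsewhere, a ratio of 394 with an exact 95% Poisson interval of 154 to 1445 for the intestinal count. miR-206, of skeletal muscle, had 0 reads in the intestine and a pooled 25.4 RPM elsewhere, at least 264-fold lower by the upper bound of the same interval. Within the neural list, hsa-miR-124-5p was the single entry called higher over libraries. Its lowest, median and highest values were 0, 14.9 and 81.3 RPM in the intestine and 0, 0 and 49.5 RPM elsewhere, and it was higher by 3.19 ± 0.58 (adjusted p = 2.00e-05), while miR-124 itself had a median of 2.41 RPM in the intestine and 2971 RPM in brain and a log2 fold change of -5.27 ± 1.45. The level of hsa-miR-124-5p in brain was 22.9 RPM (median).

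A stricter rule, modelled on that of the study, asked for a median above 100 RPM in at least 1 of the 16 tissues, a ratio of class means above 5, and an exact rank-sum test past an adjusted p of 0.05. Of 650 detected miRNAs, 6 passed as higher (0.923%): miR-215 (551-fold), miR-147 (26.3), miR-194 (15.7), miR-192 (7.55), miR-18a (7.01) and miR-203 (6.78). In the other direction 16 passed (2.46%). The highest other tissue was brain for 8 of these, plasma for 3, heart for 2, and kidney, testis and skeletal muscle for 1 each. Ratios were 147 for miR-92b, 105 for miR-205, 90.9 for miR-124, 26 for miR-1, 14.4 for miR-204 and 11.8 for miR-486. By the rank-sum test alone, 77 were higher (11.8%) and 70 lower (10.8%). No miRNA had intestinal libraries all above, or all below, the other 57 (0 of 650 each way, 0.0%). Without the 3 duodenum libraries, miR-215 (lowest intestinal 1218 RPM, highest other 474 RPM in plasma) and miR-147 (15.3 against 15.1 RPM in testis) did not overlap with the other libraries, 2 of 650. These 3 libraries were chosen after the data were seen and include every intestinal library that had overlapped for these miRNAs, so the separation follows from the choice. For miR-147 the testis value lay near the floor of its library (11.3 RPM).

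Seen 1 tissue at a time against the other 12, the intestinal tissues each gave more higher than lower calls with tissues weighted equally: 111 higher (23.1%) and 25 lower (5.21%) in duodenum, 139 (29.0%) and 71 (14.8%) in jejunum, 112 (23.3%) and 48 (10%) in ileum, and 100 (20.8%) and 42 (8.75%) in colon. These 4 comparisons share their 57 control libraries. A set of 49 miRNAs was higher in all 4, and 8 were lower in all 4 (miR-22, hsa-miR-22-5p, miR-128, miR-208b, miR-423a, miR-500, miR-502 and miR-1249). miR-215 had log2 fold changes of 9.50 in duodenum, 10.71 in jejunum, 9.19 in ileum and 5.96 in colon, and miR-143 of 3.47, 1.79, 2.59 and 3.19. Without the 3 duodenum libraries, duodenum had 93 higher and 52 lower.

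The second question was how the 4 intestinal tissues differed among themselves. An F-test over the 19 intestinal libraries (edgeR, 287 miRNAs tested) called 75 (26.1%), with the highest mean in duodenum for 33, jejunum for 19, ileum for 12 and colon for 11. This split was not counted over all 287 tested or without the 3 duodenum libraries, so it does not rank the tissues. Leaving out the 3 duodenum libraries gave 87 calls, of which 49 were among the 75, and leaving out duodenum replicate 2 gave 120. Colon against the 3 small intestinal tissues gave 5 higher (1.74%) and 6 lower (2.09%). Leaving out jejunum replicate 4, ileum replicate 3, colon replicate 2 or colon replicate 3 gave 3 lower calls. Without the 3 duodenum libraries the counts were 38 and 32, and the 11 of the full set were all among them in the same direction.

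The HOX-cluster miRNAs miR-196b and miR-196a gave the lowest p-values. miR-196b measured 2.26, 0.621, 2.16, 0.778 and 3.15 RPM in duodenum, 2.10, 0.496, 3.27, 1.21 and 1.61 RPM in jejunum, 344, 639, 507, 314 and 393 RPM in ileum and 551, 531, 566 and 1030.2 RPM in colon. Duodenum and jejunum lay near the detection floor, and every ileum and colon library was above every library of those tissues (F-test adjusted p = 3.38e-12). miR-196a measured 0.311 to 4.52, 0 to 0.803, 247 to 460.3 and 186 to 544 RPM in the same order (adjusted p = 1.79e-11). Colon exceeded the small intestine by 5.91 ± 0.26 for miR-196b (log2, SE, adjusted p = 1.77e-12) and 5.31 ± 0.30 for miR-196a (adjusted p = 6.98e-11), but ileum was at the level of colon. Set against the other 12 tissues, the HOX-cluster list had 0 of 7 higher and 2 lower (median 0.30, all tested -0.91), miR-10b at -1.54 and hsa-miR-10b-3p at -1.50, and 4 higher and 0 lower with tissues weighted equally (median 0.99).

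miR-222, which is made with miR-221 and is known to target KIT and the cell cycle inhibitor CDKN1B, was 220.1 to 413 RPM in duodenum, 189.9 to 430.3 in jejunum, 486 to 895 in ileum and 668 to 1667 in colon. The proximal and distal tissues did not overlap (F-test adjusted p = 1.67e-04), and colon exceeded the small intestine by 1.20 ± 0.16 (adjusted p = 5.40e-05). miR-155 measured 404, 355, 145, 187 and 455 RPM in duodenum, 669, 254, 1063, 399 and 350.3 RPM in jejunum, 2291, 1295, 2264, 1441 and 4873 RPM in ileum and 776, 1061, 1043 and 2298 RPM in colon. Its values were higher in ileum than in any duodenum or jejunum library, with colon overlapping both (F-test adjusted p = 2.54e-04). miR-147 measured 31.6, 32.6, 4.33, 0 and 4.21 RPM in duodenum, 23.1, 16.4, 19, 38.3 and 15.3 RPM in jejunum, 47.7, 73.2, 46.7, 17.2 and 34.2 RPM in ileum and 98.7, 76.1, 122 and 197 RPM in colon. Every colon library lay above every small intestinal library, by 2.35 ± 0.44 in the fit (adjusted p = 0.00237).

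miR-215 and miR-802 had the opposite order, with colon lowest by tissue mean. miR-215 measured 37817, 91939, 424, 479.9 and 6982 RPM in duodenum, 43168, 89467, 79967, 44759 and 53125 RPM in jejunum, 21317, 44871, 43174, 9365 and 9800.0 RPM in ileum and 1954, 1218, 3413 and 2961 RPM in colon. Colon was below all small intestinal libraries except duodenum replicates 3 and 4, and the difference was -3.86 ± 1.06 (adjusted p = 0.0456). miR-802 measured 648, 619, 0, 1.56 and 55.7 RPM in duodenum, 558, 544, 507, 465.9 and 384 RPM in jejunum, 104, 123, 152, 39.1 and 47.5 RPM in ileum and 0.512, 0, 0 and 0.464 RPM in colon. The 4 colon libraries held 5 reads in all, a pooled 0.425 RPM against 285 RPM in the small intestine, a ratio of 670.5 (exact 95% Poisson interval of the colon count, 287 to 2065), and the adjusted p of the contrast was 0.00189. miR-885 was also lowest in colon, at 2.33 to 142 RPM in duodenum, 98.2 to 248 in jejunum, 3.80 to 11.3 in ileum and 0 to 4.57 in colon (F-test adjusted p = 8.18e-05, colon difference -4.21 ± 0.80, adjusted p = 0.00237). hsa-miR-124-5p was also lower in colon (-3.62 ± 0.98, adjusted p = 0.0456). The remaining calls of this contrast were hsa-miR-136-3p, of the imprinted DLK1-DIO3 region, higher by 2.05, and miR-8908a-3p and miR-455, lower with values of -2.66 and -1.08.

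**Figure D5:**
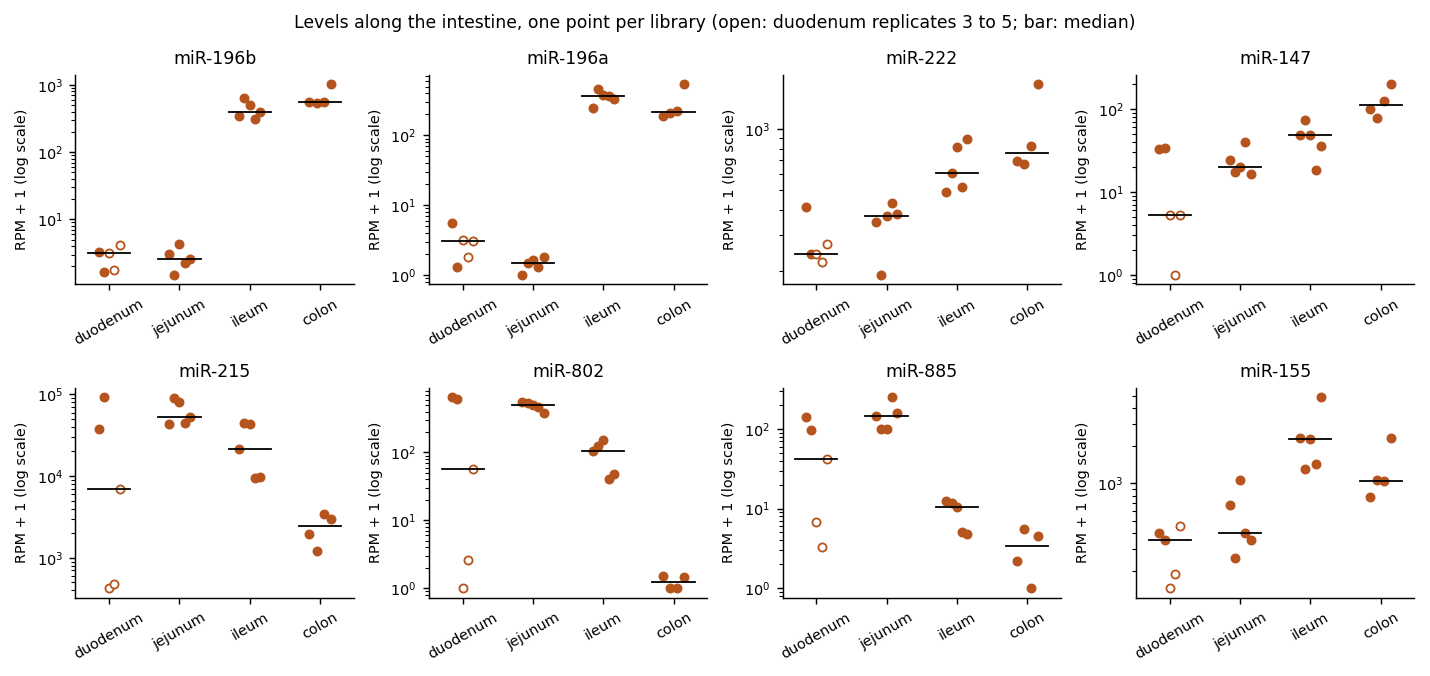
Levels of 8 miRNAs are drawn as RPM + 1 on a log scale (y axis) for each library of duodenum, jejunum, ileum and colon (x axis), with duodenum replicates 3 to 5 as open points and tissue medians as bars. miR-196a and miR-196b are at most 4.52 RPM in duodenum and jejunum and at least 186 RPM in ileum and colon, and miR-802 is at most 0.512 RPM in colon.

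The miRNAs that the study names for an intestinal tissue and that are not described above differed less between the classes. miR-342, which lies in the EVL gene and is abundant in lymphocytes, spanned 49.4, 163 and 351 RPM in the intestine and 7.28, 89 and 1641 RPM elsewhere. The ranges overlapped and the log2 fold change was 0.45 ± 0.29 (adjusted p = 0.18), while its partner hsa-miR-342-5p was higher by 1.03 ± 0.37 (adjusted p = 0.0146), a call lost under 10 alternatives such as scaling by library size alone (0.72). miR-374b differed by 0.16 ± 0.33 (adjusted p = 0.693), and miR-15a, which with miR-16 targets BCL2, by -0.75 ± 0.45 (adjusted p = 0.146). miR-15a spanned 43.6, 485 and 919 RPM against 19, 295 and 4899.6 RPM, with plasma highest, and its sign turned to 0.49 without plasma.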

How the data were processed

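Small RNA libraries of 16 beagle tissues were sequenced on an Illumina instrument after TruSeq small RNA preparation. The authors aligned trimmed reads to the CanFam 3.1 dog genome without mismatches, dropped reads with many genomic matches, and counted reads overlapping dog, rat and human miRNA loci. The deposited values were raw counts per miRNA, used for all count models, and RPM, which the authors scaled to the reads assigned to miRNAs and which the recomputed values matched to a relative difference of 2.89e-09. Rows absent for a library were taken as 0. In the table, 1 further sample name, of a sciatic nerve pool, was not used, and 1 labelled colon sample had no values. Duplicated libraries were looked for in the 36 same-tissue intestinal pairs, which all differed by more than sampling noise (chi-square per degree of freedom at least 62.0).

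edgeR 4.0.16 in R 4.3.3 fitted quasi-likelihood models with TMM scaling and a filter on low counts by tissue to 480 miRNAs (287 within the intestine). limma 3.58.1 tested tissue means of log2 CPM with a pseudocount of 1. Exact two-sided rank-sum tests and figures used Python 3.11.15, scipy 1.17.1 and matplotlib 3.10.9. Benjamini-Hochberg adjustment covered all miRNAs tested and the threshold was 0.05. On simulated counts for the 480 miRNAs of the comparison of classes, 88% of 2-fold and 99% of 4-fold changes were recovered and 0.357% of unchanged miRNAs were called. In the simulation of the comparison within the intestine, also of 480 miRNAs and with changes set in colon, these were 27%, 74% and 1.07%. Both simulations used a fixed dispersion and no differences between tissues other than the set changes. Their rates therefore do not cover the spread between the tissues of a class that the data hold.

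Named miRNAs were, by median level of at least 100 RPM, the 12 with the largest positive log2 fold change, the 10 with the largest negative one among those reaching that level in at least 6 other tissues, the 3 with the largest negative one reaching it in at least 1 other tissue, the 5 with the lowest p within the intestine, those the study names for an intestinal tissue, and members of the marker lists that were called or reached 100 RPM. Others were chosen after their values were seen. The classes, lists and rules were chosen with earlier results of these data known. Alternatives were other scalings, DESeq2 1.42.0, no filter, equal weight for each tissue, tissue as the unit, leaving out tissues or single libraries, and, chosen after seeing the data, leaving out 3 duodenum libraries.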

Additional observations from a re-analysis of the deposited data

Results flagged for a closer look

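Among 136 sets of values for named miRNAs within an intestinal tissue, 14 held a library far from the others by Dixon's test, which picks out about 1 in 20 sets by chance. Colon replicate 5 was the high value for miR-146a (8630 RPM, others 3648 to 4036), miR-128 (286, others 149 to 164), miR-342 (192, others 49.4 to 64.7), miR-196b (1030.2, others 531 to 566), miR-196a (544, others 186 to 223) and miR-222 (1667, others 668 to 827). Ileum replicate 4 was low for miR-21 (30603 RPM, others 53030 to 61775) and high for miR-133a (1271, others 168 to 399). Ileum replicate 5 was high for miR-155 (4873 RPM, others 1295 to 2291) and ileum replicate 3 for miR-486 (8321, others 864 to 2323). Duodenum replicate 5 was high for miR-451 (5842 RPM, others 941 to 2035), duodenum replicate 1 for miR-222 (413, others 220 to 269), duodenum replicate 2 for miR-141 (18021, others 173 to 3574) and jejunum replicate 2 for miR-141 (21926, others 3015 to 5608).

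For 10 miRNAs, intestinal tissues differed from the other 12 tissues in opposite directions, and the tissues also differed among themselves by the F-test (edgeR, adjusted p, with the value without the 3 duodenum libraries second). miR-196b was higher in ileum and colon and lower in duodenum and jejunum (3.38e-12 and 2.03e-11). miR-885 was higher in duodenum and jejunum and lower in colon (8.18e-05 and 1.48e-08). miR-411 was higher in duodenum and colon and lower in jejunum (0.0127 and 4.29e-05), and hsa-miR-136-3p was higher in colon and lower in jejunum (0.0173 and 9.73e-05). miR-10b (0.0235 and 0.000803), miR-127 (0.0142 and 0.000803) and miR-193a (0.0127 and 0.0214) were higher in duodenum and lower in jejunum. So were miR-381 (0.0151 and 9.52e-05), miR-410 (0.0171 and 0.000839) and miR-99b (0.0239 and 0.130). All these directions are from the full set. The F-test has no direction, so its second value does not show that a duodenum direction held without the 3 libraries. For miR-10b these 3 had 49081 to 193849 RPM, and the other 2 duodenum libraries 14735 and 36113 RPM. miR-885 went the other way, with 2.33 to 41.0 RPM against 94.7 and 142 RPM, and miR-196b overlapped.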

How the results depend on the processing

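Counts for jejunum and colon against the other tissues stayed within 1.5 times of those given in every setting run. Other counts moved by more in the settings below, and the cause was not tested. Higher calls were 147 with tissues weighted equally, 126 with that weighting and without the 3 duodenum libraries, 77 by rank-sum, 62 without plasma and bone marrow, 25 without jejunum and 3 with tissue as the unit. Lower calls were 75 with tissues weighted equally, 105 with that weighting and without the 3 libraries, 70 by rank-sum, 144 without brain and 0 with tissue as the unit. The 5-fold rule gave 30 higher with medians, 24 at a ratio of 2 and 14 without pancreas, and 4 lower with medians and 45 at a ratio of 2. Non-overlapping higher miRNAs were 1 with TMM-scaled RPM, 1 without plasma and bone marrow, and 2 without the 3 duodenum libraries. Colon above small intestine gave 12 without the filter, 8 by DESeq2, 14 in a fit over all tissues and 38 without the 3 duodenum libraries. Colon below gave 3 with library size alone, 10 by DESeq2 and 32 without the 3 libraries. Duodenum had 70 higher with library size alone and 52 lower without the 3 libraries, and ileum 75 lower both without plasma and bone marrow and without the 3 libraries.

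Leaving out single libraries gave 35 to 51 higher and 195 to 229 lower calls, 6 to 8 and 15 to 21 by the 5-fold rule, 0 to 1 and 0 to 0 non-overlapping (1 without duodenum replicate 3 or plasma replicate 4), 54 to 120 by the F-test (120 without duodenum replicate 2), and 4 to 7 and 3 to 6 for colon. No paired analysis was possible because the labels carry no dog or replicate numbers that tie libraries of different tissues.

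Signs turned for 5 named miRNAs (log2 fold changes). miR-133a was 0.58 with tissues weighted equally, 0.59 with tissue as the unit and 0.12 with equal weight without the 3 libraries. miR-148a was 0.68, 0.69 and 0.59, and 0.26 without pancreas. miR-802 was 4.31, 2.78 and 4.48, 2.88 without pancreas, and 0.08, 0.18, 0.17 and 0.02 without pancreas replicate 1, 2, 3 or 4 (lowest -0.69, without kidney replicate 5). miR-15a was 0.27, 0.28 and 0.35, 0.56 without plasma and bone marrow and 0.49 without plasma. miR-374b was -0.092 with DESeq2 size factors, -0.071 by DESeq2, -0.082 without jejunum, -0.014 without liver or lung, -0.024 without thymus and -0.038 without jejunum replicate 4. A 3-read floor limits statements on miRNAs under about 6.77 RPM in the shallowest intestinal library.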

Other observations

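Some miRNAs outside the marker lists were also higher in the intestinal tract over libraries (edgeR). They were chosen for description after their values were seen. miR-152 and miR-148b, which share a seed with miR-148a, had log2 fold changes of 1.40 ± 0.37 (adjusted p = 0.00141) and 1.03 ± 0.26 (adjusted p = 7.91e-04). Their lowest, median and highest values were 26.4, 80.1 and 522 RPM and 162, 559 and 1329.7 RPM in the intestine against 2.34, 40.5 and 259 RPM and 18.8, 238 and 1477 RPM elsewhere, so both ranges overlapped those of the other class. miR-29b, known to target collagen mRNAs, differed by 1.32 ± 0.24 (adjusted p = 2.91e-05). The partner strand of miR-21, rno-miR-21-3p, differed by 1.5 ± 0.43 (adjusted p = 0.00273), in the same direction as miR-21. miR-23b, miR-24 and miR-574 had log2 fold changes of 0.86, 0.75 and 0.85, and none of them passed the threshold without the 3 duodenum libraries that stood apart (adjusted p = 0.0516, 0.172 and 0.257, edgeR).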
